A study of Homo sapiens with 4 samples.

Results

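The collagen genes of hFOB1.19 cells, a human fetal osteoblast line, were followed through 4 libraries of total RNA. The members were all genes of the deposited mRNA table whose symbol is COL, a type number, A and a chain number, which gave 44 of 19610 gene symbols and 166 of 79798 transcripts. Day 0 is the control before induction. Days 3, 6 and 9 are the libraries undergoing mineralization, for which the study's methods describe culture at a higher temperature than for routine growth. Each time point has 1 library, so no difference between days has a replicate check, no test was made, and differentiation, temperature and time in culture cannot be told apart. The model is a line conditionally immortalised by a temperature-sensitive viral oncoprotein, and the labels say that the mRNA libraries were treated with RNase R, an enzyme that digests linear RNA. Such a treatment is more usual for circular RNA libraries, and if it was applied as stated the FPKM would describe the linear RNA left after digestion, which was not tested.

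Collagens are secreted or membrane proteins whose chains carry glycine at regular intervals and wind around each other into a rigid helix. Fibrillar collagens pack into the striated fibres of bone, skin and tendon, and type I collagen is the main protein of the organic bone matrix on which mineral is laid down. Network-forming collagens, such as type IV of basement membranes and types VIII and X, join at their ends into sheets. Fibril-associated collagens with interrupted helices (FACIT) coat the fibrils. The remaining group holds the beaded filaments of type VI, the anchoring fibrils of type VII, the transmembrane collagens and those that release endostatin-like fragments.

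All values are FPKM, the authors' measure of transcript level per length and per sequencing depth, summed over the transcripts of a gene. Log2 ratios between days are on the scale of FPKM plus 1, on which differences of weakly expressed genes come out too small. The limit for calling a gene 2-fold higher or lower was 1 or -1 on this scale, for genes that reached 1 FPKM in any library. This minimum was met by 12859 genes and by 27 of the 44 collagen genes. Of these 27, 21 had at least 1 FPKM on day 0. The other 6, namely COL8A2, COL9A2, COL10A1, COL11A1, COL17A1 and COL24A1, passed only through a later library, so that each of them had to be higher there. No read counts per gene are in the table, so a counting interval could not be given.

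The type IV collagen genes lie in head-to-head pairs that share a stretch of DNA between their start sites, and these stretches are shown because the members of a pair were set side by side below. In the RefSeq annotation of GRCh38.p14, 126 bases separate COL4A1 from COL4A2, 135 separate COL4A4 from COL4A3, and 379 separate COL4A6 from COL4A5. The plus strand is printed from chr13:110307158-110307283 and chr2:227164489-227164623, which are the whole stretches, and from chrX:108439588-108439837, the 250 bases next to the COL4A5 start. Capitals mark the letters CCAAT and GGGCGG on either strand.
COL4A1-COL4A2: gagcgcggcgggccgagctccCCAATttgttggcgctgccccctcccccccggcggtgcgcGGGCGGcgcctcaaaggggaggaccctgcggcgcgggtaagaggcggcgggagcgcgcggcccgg
COL4A4-COL4A3: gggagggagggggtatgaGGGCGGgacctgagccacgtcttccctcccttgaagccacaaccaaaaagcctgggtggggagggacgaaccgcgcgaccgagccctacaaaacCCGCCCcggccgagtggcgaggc
COL4A6-COL4A5: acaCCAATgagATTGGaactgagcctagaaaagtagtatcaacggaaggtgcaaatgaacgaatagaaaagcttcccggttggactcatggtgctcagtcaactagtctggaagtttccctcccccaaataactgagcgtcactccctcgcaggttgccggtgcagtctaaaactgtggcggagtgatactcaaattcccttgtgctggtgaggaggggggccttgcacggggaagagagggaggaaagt
The stretch between COL4A1 and COL4A2 has a GC content of 80.2% and holds 1 CCAAT, a motif read by the factor NF-Y, and 1 GGGCGG, a core of the Sp1 site. That between COL4A4 and COL4A3 has 68.1% GC with 2 GGGCGG and 0 CCAAT. The 250 printed bases of the COL4A6-COL4A5 stretch have 51.2% GC with 2 CCAAT and 0 GGGCGG. In the same number of bases before the start, CCAAT was found in 21.1%, 22.1% and 32.0% of 35116 RefSeq promoter windows, and GGGCGG in 34.6%, 35.5% and 42.6%. Neither TATAAA nor TGTGGT, the core of the RUNX site, is in any of the 3 printed sequences on either strand. The rest of the COL4A6-COL4A5 stretch, on the COL4A6 side, was not searched. Over the 44 windows of 300 bases listed for 32 of the collagen genes, CCAAT was in 14 (31.8% against 34.6% of all windows) and GGGCGG in 24 (54.5% against 45.0%). TATAAA was in 8 (18.2% against 11.5%) and TGTGGT in 1 (2.27% against 13.1%). COL1A1, COL1A2 and COL3A1 are not among these genes, so the counts do not cover them. These matches are letters in a window and say nothing of a factor's binding.

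The cells carried a collagen profile led by type I, and 14 of the 27 members at 1 FPKM or more were 2-fold higher on day 3. These 14 were higher than on day 0, a call made for 8.13% of all genes, and 1 further gene was 2-fold lower on day 3, against 5.3% of all genes. On day 6 the numbers were 12 higher (9.01% of all genes) and 1 lower (6.42%), and on day 9 they were 11 higher (9.6%) and 1 lower (6.52%). With 0.1 added, or with a minimum of 5 FPKM, day 6 had as many higher genes as day 3. Among the 21 members already at 1 FPKM on day 0, 13, 12 and 10 were higher on days 3, 6 and 9. The share of all genes under this day 0 minimum was not computed. The shares given here are over genes at 1 FPKM in any library. COL1A2, COL3A1, COL27A1, COL4A5, COL4A6, COL6A2, COL6A3, COL7A1 and COL13A1, 9 genes, were higher on all 3 later days, against 5.93% of all genes, and COL5A3 was lower on all 3, against 3.45%. By class, 5, 5 and 3 of 9 fibrillar genes, 4, 3 and 4 of 8 network genes and 5, 4 and 4 of 7 other collagens were higher on days 3, 6 and 9, and 0 of 3 FACIT genes. The 3 comparisons share the day 0 library, so they do not check each other. Their median log2 ratios to day 0 were 1.04, 0.98 and 0.61 for days 3, 6 and 9, beside -0.08, -0.08 and -0.09 over all 12859 genes. Above 0 were 26, 26 and 24 of the 27, where 44.9%, 45.1% and 44.8% of all genes were above 0. The 6 members that passed the minimum only through a later library had to be above 0 there. The minimum thus fixed part of this count and of the medians, and neither was recomputed over the 21 members.

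**Figure D1:**
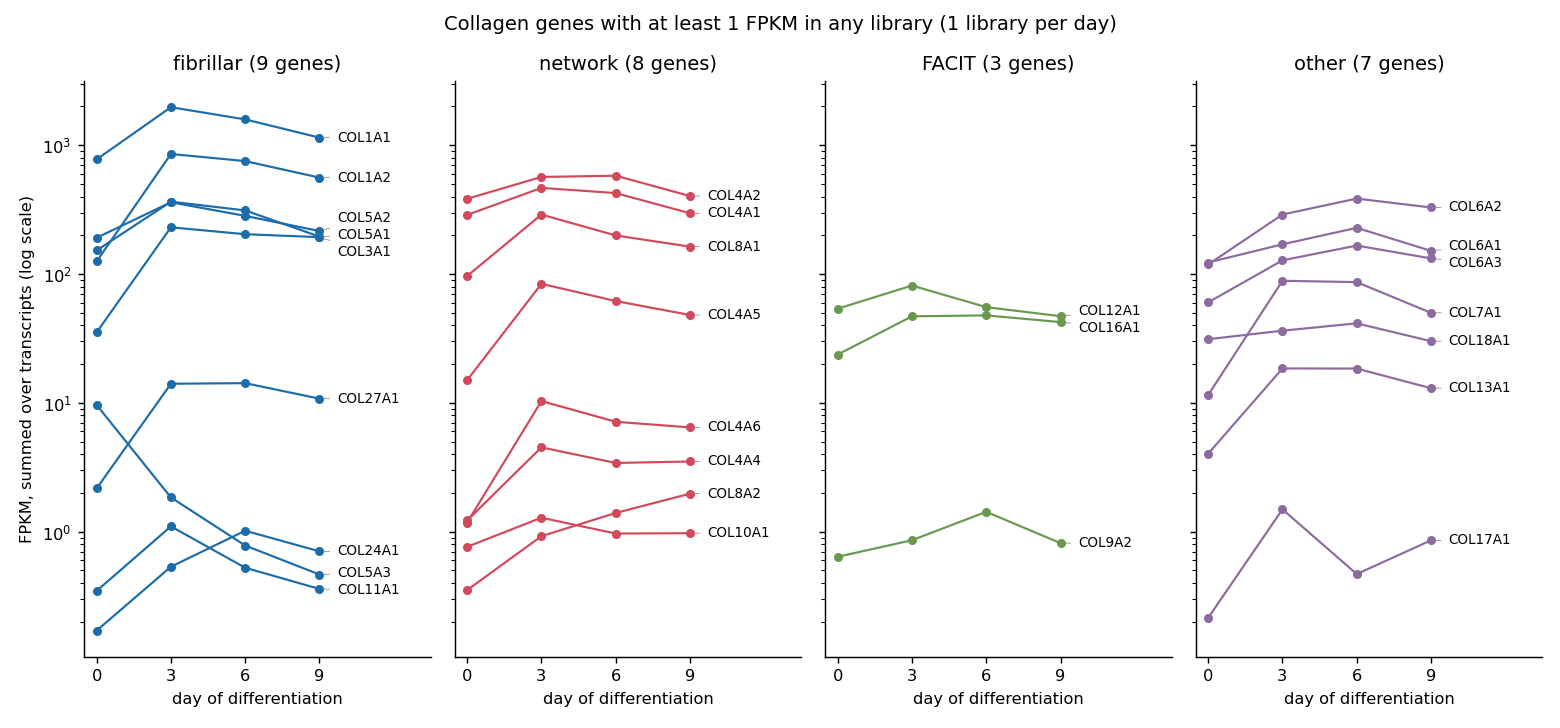
FPKM on a log scale (vertical) by day (horizontal) of the 27 collagen genes that reached 1 FPKM, in a panel per class. Each line joins the 4 libraries of 1 gene. COL1A1 lies at the top in every library, most lines climb from day 0 to day 3, and COL5A3 goes down from 9.63 to 0.46.

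Among the fibrillar genes, COL1A1 (ENSG00000108821), which encodes the major chain of type I collagen, had the highest level of all collagen genes in every library. It had 777, 1974, 1587 and 1146 FPKM on days 0, 3, 6 and 9. The day 0 library was the lowest, and the log2 ratios of 1.34, 1.03 and 0.56 put days 3 and 6 past the 2-fold limit and day 9 within it. Its rank among all 19610 genes went from 125 to 24 and then to 36 and 57.

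COL1A2 (ENSG00000164692), the partner chain of type I, had 125, 856, 753 and 561 FPKM on days 0, 3, 6 and 9. All 3 later libraries were at least 4.47-fold above day 0. COL3A1 (ENSG00000168542), whose homotrimer makes type III collagen of elastic and young tissue, had 35.3, 231, 204 and 193 FPKM in the same order. Its log2 ratios were 2.67, 2.50 and 2.42, and its rank among all genes went from 3031 on day 0 to 300 on day 3.

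Type V chains sit inside type I fibrils and limit their width. COL5A1 had 152, 365, 312 and 195 FPKM from day 0 to day 9, with log2 ratios of 1.25, 1.03 and 0.36. COL5A2 had 191, 361, 283 and 216 FPKM, with 0.91, 0.56 and 0.17, all within the limit. Both followed the course of COL1A1, highest on day 3 and nearest to day 0 on day 9.

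COL5A3 (ENSG00000080573), the remaining type V chain, went the other way. It had 9.63, 1.84, 0.781 and 0.465 FPKM on days 0, 3, 6 and 9, all from its only listed transcript. Its log2 ratios of -1.90, -2.58 and -2.86 made it the only collagen gene called lower on any day, and it was the only one of the 27 with its highest level on day 0. COL27A1, a fibrillar collagen known from cartilage, had 2.16 FPKM on day 0 and 14.1, 14.2 and 10.8 later, with log2 ratios of 2.25, 2.27 and 1.90. The other fibrillar genes stayed low. COL11A1, COL11A2, COL24A1 and COL2A1, the chain of cartilage type II collagen, reached at most 1.10, 0.897, 1.02 and 0.153 FPKM.

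**Figure D2:**
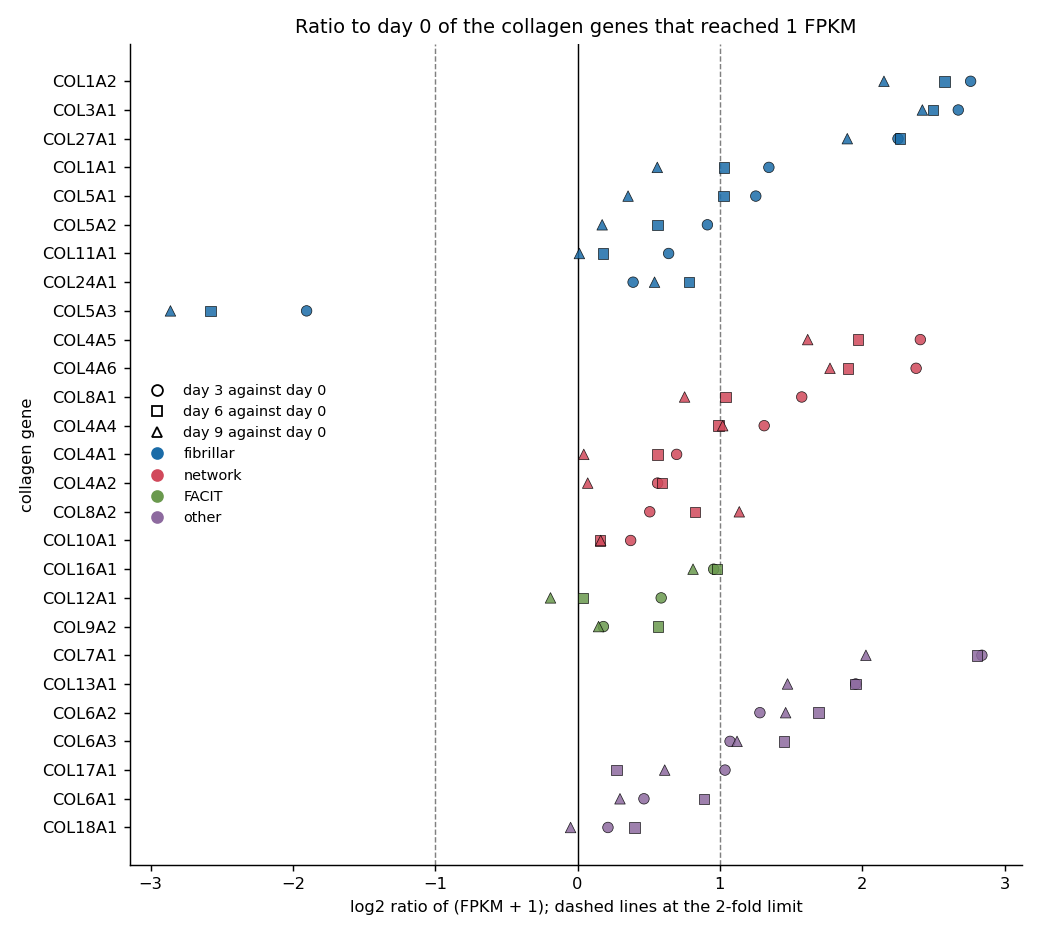
Log2 ratio to day 0 (horizontal) of each of the 27 collagen genes (vertical) on days 3, 6 and 9, coloured by class, with dashed lines at the 2-fold limit. COL7A1, COL1A2 and COL3A1 lie farthest to the right and COL5A3 alone lies beyond the limit on the left.

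In the network class, the main basement membrane chains were abundant and changed little. COL4A1 had 288, 467, 425 and 297 FPKM on days 0, 3, 6 and 9. COL4A2 had 384, 567, 580 and 403. Their log2 ratios lay between 0.04 and 0.70, within the limit on every day, and the day 9 levels were 1.03-fold and 1.05-fold those of day 0. These are the genes of the GC-rich 126-base stretch printed above, and the ratio of COL4A1 to COL4A2 was 0.749, 0.823, 0.733 and 0.735.

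The pair on the X chromosome stood at a lower level and differed more from day 0. COL4A5, mutated in Alport syndrome, had 15.0, 84.0, 61.8 and 48.1 FPKM on days 0, 3, 6 and 9. COL4A6 had 1.18, 10.3, 7.13 and 6.44. The log2 ratios were 2.41, 1.97 and 1.62 for COL4A5 and 2.38, 1.90 and 1.77 for COL4A6, so both were past the limit on each day, and COL4A6 stood at 0.0784 to 0.134 times the level of COL4A5.

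The pair on chromosome 2 did not share a level. COL4A4 had 1.22 FPKM on day 0 and 4.51, 3.41 and 3.51 later, with log2 ratios of 1.31, 0.99 and 1.02. COL4A3 was between 0.134 and 0.268 FPKM in all 4 libraries, under the minimum. COL8A1, a short-chain collagen of vessel walls and the cornea, had 96.5, 290, 199 and 163 FPKM, past the limit on days 3 and 6 with 1.58 and 1.04 and within it on day 9 with 0.75. COL8A2 was low, from 0.352 FPKM on day 0 to 1.97 on day 9, with 1.14 on day 9. It was the only member at 1 FPKM or more whose highest library was day 9. COL10A1, a marker of hypertrophic cartilage, had between 0.762 and 1.28 FPKM.

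**Figure D3:**
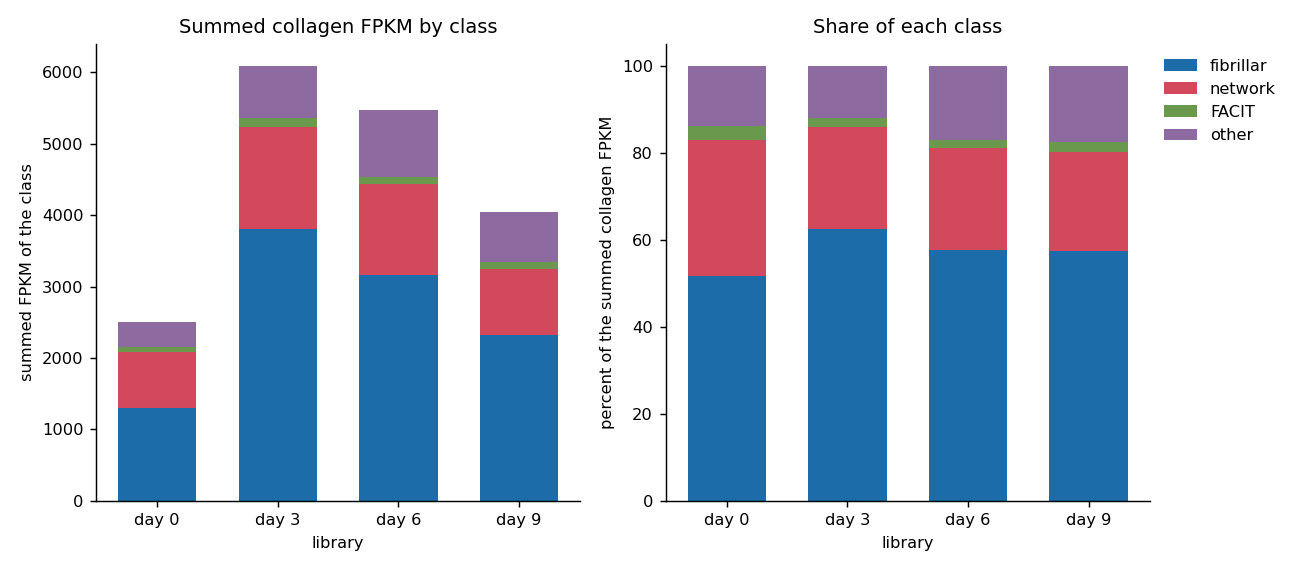
Summed FPKM of the 4 classes in each library as stacked bars from 0 (left) and as percent of the summed collagen FPKM (right). The sum is highest on day 3, and the fibrillar share goes from 51.6% to 62.4% between days 0 and 3 while the network share goes from 31.4% to 23.4%.

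Of the 10 FACIT genes, 3 reached 1 FPKM and 0 were past the limit on any later day. COL12A1, which decorates fibrils under mechanical load, had 53.8, 81.4, 55.4 and 47.1 FPKM on days 0, 3, 6 and 9. Day 9 was the lowest of the 4 libraries, with log2 ratios of 0.59, 0.04 and -0.19. COL16A1 had 23.7, 47.0, 47.8 and 42.4 FPKM, and its ratios of 0.96, 0.98 and 0.81 lay just under the limit. When all FPKM were rescaled by a factor per library, COL16A1 passed the limit on days 3 and 6, with 1.08 and 1.11. The factor was the median ratio of the library's genes to their geometric mean over the libraries. COL9A2 had at most 1.43 FPKM. The other 7, among them COL14A1 and COL9A1, stayed under 1 FPKM, and COL9A1 was listed at 0 in all 4 libraries.

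Type VI collagen forms a beaded net around cells, and its 3 main genes had their highest level on day 6 instead of day 3. COL6A1 had 123, 170, 229 and 151 FPKM on days 0, 3, 6 and 9, within the limit on every day with 0.47, 0.89 and 0.30. COL6A2 had 119, 290, 385 and 329 FPKM, with 1.28, 1.69 and 1.46. COL6A3 had 60.3, 128, 166 and 132 FPKM, with 1.07, 1.45 and 1.12. The later chains COL6A5 and COL6A6 had at most 0.00477 and 0.296 FPKM.

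COL7A1 (ENSG00000114270), which anchors the basement membrane of skin to the dermis, had the largest log2 ratio of all collagen genes on days 3 and 6. This ranking depends on the added 1. As a plain FPKM ratio on day 3, COL4A6 was at 8.77, from 1.18 FPKM on day 0, and COL7A1 at 7.70. It had 11.5, 88.7, 86.6 and 49.98 FPKM on days 0, 3, 6 and 9, with log2 ratios of 2.84, 2.81 and 2.03. On day 9 COL3A1 and COL1A2 were above COL7A1. As plain FPKM ratios on day 9, COL4A6 (5.48) and COL27A1 (4.98) were above COL7A1 (4.34) as well. COL13A1, a transmembrane collagen found at cell adhesions, had 4.03, 18.5, 18.5 and 13.0 FPKM, with 1.95, 1.95 and 1.48.

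COL18A1, which carries endostatin, differed little, with 31.2, 36.3, 41.4 and 30.1 FPKM. COL17A1, the hemidesmosome collagen of epithelia, was past the limit on day 3 only, at 1.49 FPKM against 0.214 on day 0, and had 0.469 and 0.857 later. With 0.1 added in place of 1 it was past the limit on day 9 as well, with 1.61. COL15A1, COL23A1, COL25A1, COL26A1 and COL28A1 stayed under 1 FPKM. In all, 17 members did so, with the highest value that of COL25A1 at 0.995.

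Summed over the 44 genes, collagen FPKM came to 2509, 6093, 5471 and 4048 on days 0, 3, 6 and 9. This was 2.43, 2.18 and 1.61 times day 0, and 0.406%, 1.13%, 1.002% and 0.710% of all mRNA FPKM of the library. COL1A1 and COL1A2 together made up 36.0%, 46.4%, 42.8% and 42.2% of the collagen sum. Without COL1A1 the ratios were 2.38, 2.24 and 1.68.

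The classes did not move in parallel. The fibrillar sum was 1294, 3804, 3157 and 2324 FPKM, or 2.94, 2.44 and 1.80 times day 0. The network sum was 787, 1425, 1280 and 924 FPKM, or 1.81, 1.63 and 1.18 times day 0, most of it COL4A1 and COL4A2. The FACIT sum was 78.9, 130, 105 and 91.4 FPKM, and it never exceeded 3.14% of the collagen sum. The class of other collagens had 349, 734, 930 and 708 FPKM and was the only class with its highest sum on day 6. Its share went from 13.9% on day 0 and 12.1% on day 3 to 17.0% and 17.5%. The median log2 ratios over members that reached 1 FPKM were 1.25, 1.03 and 0.54 for 9 fibrillar genes and 1.004, 0.91 and 0.89 for 8 network genes. They were 0.59, 0.57 and 0.15 for the 3 FACIT genes and 1.07, 1.45 and 1.12 for 7 other collagens. These medians describe the genes and carry no test.

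Levels per length allow the chains of a collagen type to be set against each other within a library, where scaling between libraries plays no part. Type I collagen usually joins 2 COL1A1 chains with 1 COL1A2 chain. That is a count of protein chains, and an RNA ratio need not match it. Collagen protein was not measured. The FPKM ratio of COL1A1 to COL1A2 took the values 6.20, 2.31, 2.11 and 2.04 on days 0, 3, 6 and 9. The day 0 library thus stood apart from the 3 later ones, which lay close together.

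The chains of type VI also shifted. The ratio of COL6A1 to COL6A2 was 1.04 on day 0 and 0.587, 0.593 and 0.460 later, while that of COL6A3 to COL6A2 stayed between 0.402 and 0.508. The ratio of COL5A1 to COL5A2 lay between 0.797 and 1.10. That of COL5A3 to COL5A1 went from 0.0632 to 0.00505, 0.00250 and 0.00238, so this chain became rare beside the others. COL3A1 to COL1A1 went from 0.0454 on day 0 to 0.117, 0.128 and 0.169, with the highest value on day 9.

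**Figure D4:**
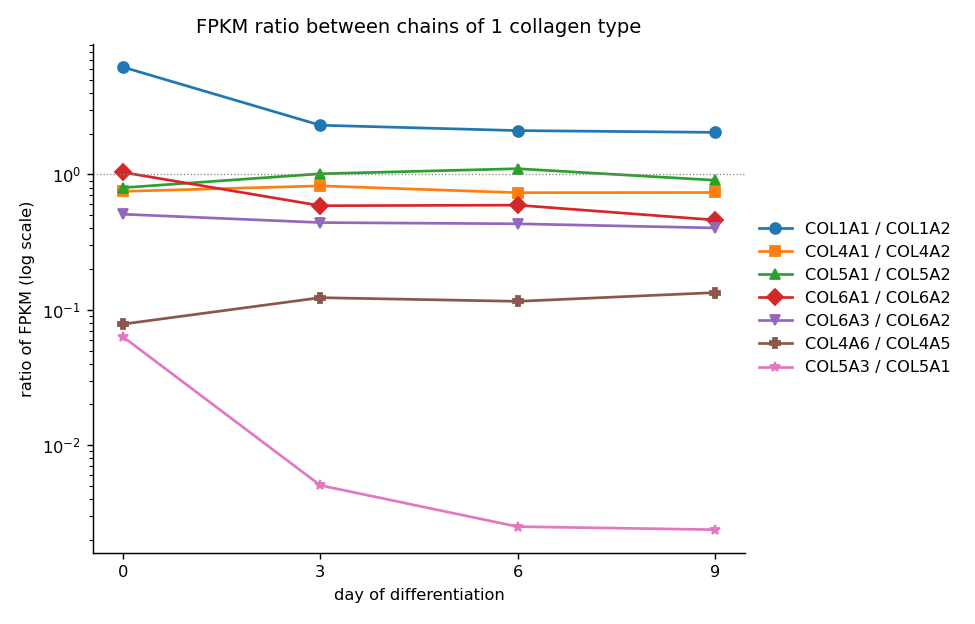
Ratio of FPKM between chains of 1 collagen type (vertical, log scale) by day (horizontal). The line of COL1A1 to COL1A2 drops from 6.20 to 2.31 between days 0 and 3 and then stays near 2.04, that of COL4A1 to COL4A2 is nearly level, and that of COL5A3 to COL5A1 drops from 0.0632 to 0.00505 between days 0 and 3.

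Comparisons among days 3, 6 and 9 set mineralization libraries against each other and leave out the control. In the comparison of day 6 with day 3, 0 of the 27 collagen genes were 2-fold higher and 0 lower, against 0.607% and 0.443% of all genes. In that of day 9 with day 6, 0 were higher and 0 lower, against 0.381% and 0.163%, and in that of day 9 with day 3, added after the values were seen, 0 and 0, against 1.39% and 0.863%. Within this limit the levels nevertheless leaned one way. Between days 3 and 9, 4 of the 27 genes had a log2 ratio above 0, where 49.98% of all genes did, and the median was -0.48 beside 0.00 over all genes. The lowest ratios from day 3 to day 9 were those of COL5A3 (-0.96), COL5A1 (-0.90), COL8A1 (-0.82), COL7A1 (-0.81), COL4A5 (-0.79), COL1A1 (-0.78) and COL12A1 (-0.78). Above 0 were COL8A2 (0.63), COL6A2 (0.18), COL24A1 (0.15) and COL6A3 (0.05). The highest of the 4 libraries was day 3 for 16 of the 27 genes and day 6 for 9, against 19.2% and 12.3% of all genes. The minimum fixed part of these counts. COL10A1, COL11A1 and COL17A1 reached 1 FPKM only on day 3, so each had to be highest there and lower on day 9. COL9A2 and COL24A1 reached it only on day 6 and had to be highest there. COL8A2, among those above 0, was under 1 FPKM on days 0 and 3. The counts were not recomputed over the 21 genes at 1 FPKM on day 0.

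Prolyl and lysyl hydroxylases and their partners act on the chains in the endoplasmic reticulum, and of 17 such genes at 1 FPKM or more, 5, 8 and 7 were 2-fold higher on days 3, 6 and 9 (8.13%, 9.01% and 9.6% of all genes) and 0 lower (5.3%, 6.42% and 6.52%). On all 3 days these were P4HA1, P4HA2 and P4HA3, the catalytic subunits of prolyl 4-hydroxylase, PLOD2, the lysyl hydroxylase of the telopeptides, and P3H2, a prolyl 3-hydroxylase. P4HA1 had 46.8 FPKM on day 0 and 212, 230 and 234 later, and P4HA2 had 93.0, 268, 327 and 426. PLOD2 had 82.0, 262, 258 and 285 FPKM, P3H2 had 3.71, 14.6, 16.1 and 20.9, and P4HA3 had 0.431, 4.38, 6.61 and 7.37. P4HA3 thus passed the minimum only through a later library, so that it had to be higher there. P4HB, the shared subunit and the most abundant of the list on average, had 312, 590, 633 and 689 FPKM, with log2 ratios of 0.92, 1.02 and 1.14. From day 3 to day 9, 11 of the 17 had a log2 ratio above 0 with a median of 0.14. SERPINH1, the collagen chaperone, had the lowest at -0.53, and CRTAP had -0.30, FKBP10 -0.18, P3H3 -0.18 and PLOD3 -0.17. Day 9 was the highest library for 9 of the 17, against 1 of the 27 collagen genes and 22.4% of all genes. Whether the lists differ from each other was not tested.

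**Figure D5:**
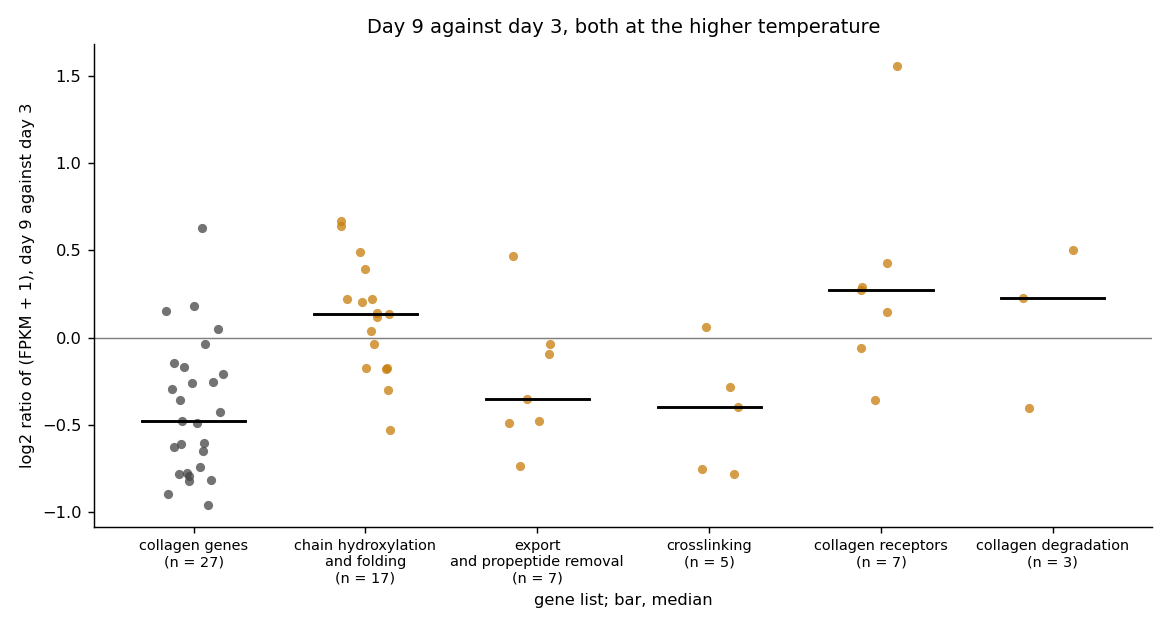
Log2 ratio of day 9 to day 3 (vertical) of the 27 collagen genes and of the genes at 1 FPKM or more of 5 other lists (horizontal), with each point a gene and each bar a median. The collagen median is -0.48, that of export and propeptide removal is -0.35, and that of crosslinking is -0.40. The median of the chain-modifying genes is 0.14, that of the receptors is 0.27, and that of degradation is 0.23.

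Of 7 genes for export and propeptide removal, 0, 1 and 1 were higher on days 3, 6 and 9, against 8.13%, 9.01% and 9.6% of all genes. The gene called on days 6 and 9 was PCOLCE2. It had 0.471 FPKM on day 0 and passed the minimum only through a later library. BMP1, the C-proteinase and the most abundant on average, had 48.9, 58.1, 44.2 and 45.2 FPKM. Of the 5 lysyl oxidases that crosslink collagen, only LOXL4 was higher on all 3 days, against 5.93% of all genes, from 0.447 FPKM to 3.44, 2.02 and 2.37. LOXL4 also passed the minimum only through a later library, where it had to be higher. LOXL2, the most abundant, had 227, 393, 386 and 323 FPKM, within the limit. Like the collagen genes, both lists leaned lower from day 3 to day 9. A log2 ratio above 0 was found for 1 of the 7 export genes, with a median of -0.35. It was found for 1 of the 5 lysyl oxidases, with a median of -0.40, where 49.98% of all genes were above 0.

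Of 7 collagen receptors, 3, 4 and 4 were higher on these days, against 8.13%, 9.01% and 9.6% of all genes. The integrin chain ITGA11, which pairs with ITGB1 to bind fibrillar collagen, had 8.26, 29.4, 28.4 and 22.7 FPKM, and ITGA2 had 1.196, 4.74, 12.002 and 15.9. ITGB1, the most abundant, had 442, 685, 805 and 837, within the limit. Of 3 genes of collagen breakdown at 1 FPKM or more, MMP2 and MMP14 were past the limit on all 3 days, as 5.93% of all genes were. MMP2, a gelatinase, had 7.18, 34.6, 33.7 and 25.9 FPKM, and MMP14, its membrane activator, had 60.5, 134, 160 and 157. The remaining gene, CTSK, was highest on day 0 and within the limit, with 2.92, 1.19, 2.34 and 2.10 FPKM. The collagenases MMP1, MMP8 and MMP13 were at most 0.174, 0.109 and 0.0845 FPKM.

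Several collagen genes list many transcripts, from 1 for COL5A3 and COL4A4 to 10 for COL13A1. Of the 19 genes with at least 10 FPKM in any library, 17 had the same leading transcript in all 4. The exceptions were COL6A3 and COL4A6. For COL6A3, ENST00000353578 led on day 0 with 55.4% of the gene's FPKM and had 37.8%, 39.8% and 40.3% later, when ENST00000472056 led with 51.4%, 47.8% and 46.6% after 28.2%. For COL4A6, ENST00000545689 led on day 0 with 46.9% of a gene level of 1.18 FPKM and was listed at 0 on days 6 and 9, while ENST00000334504 went from 32.7% to 80.8%, 71.2% and 65.2%. How the program shared reads among overlapping transcripts is not known, and an exact 0 can be a failed estimate.

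The label of the cells was checked against markers. SPARC, an abundant bone matrix protein, had 1113 to 1469 FPKM, and RUNX2, the osteoblast master regulator, had 7.37 FPKM on day 0 and 26.2, 19.3 and 18.2 later. ALPL and SPP1 reached 4.35 and 7.45 FPKM, while SP7, BGLAP, IBSP, PHEX and DMP1 stayed under 1 FPKM, so 4 of 9 osteoblast markers reached it. Of the cartilage markers, SOX9 had 1.21 FPKM on day 0 and 4.48, 5.08 and 5.32 later, and MATN3 had 16.9 and then 11.7, 8.21 and 8.33. ACAN and COMP were not above 0.278 and 0.229. The summed level of the 3 endothelial markers was 0.123 to 0.528 FPKM and that of the 3 epithelial markers 0.318 to 1.12. PTPRC, the defining marker of blood cells, was at most 0.441 FPKM. The sum of the 3 haematopoietic markers moved with the days, from 17.4 to 38.2, 65.7 and 91.5 FPKM, through CD68, a lysosomal protein not specific to blood cells. Of the 3 fat markers, PPARG had 2.75, 5.17, 6.19 and 6.26 FPKM and ADIPOQ was listed at 0. Their part in the collagen values was not tested. In bulk RNA, fewer cells of a kind and less RNA per cell cannot be told apart.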

How the data were processed

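Total RNA of hFOB1.19 cells on days 0, 3, 6 and 9 was depleted of ribosomal RNA and sequenced by the authors with a directional kit, 1 library per time point. Per the labels, RNase R was used for the mRNA libraries. The authors deposited FPKM per transcript for mRNAs and lncRNAs, a level scaled to transcript length and mapped fragments. Alignment with Bowtie and TopHat is described in the study's methods. The submitters' processing notes list Bowtie 0.12.2 and a mouse build, which does not match the human transcript IDs. The program behind the FPKM and the human build are not given in the sources used here. Depth per gene is therefore unknown.

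Columns were matched to samples by the day in the titles. FPKM were summed per symbol, and log2 ratios were taken after adding 1, with a minimum of 1 FPKM in any library and a limit of 2-fold. With no replicates no test was made. Members and lists were chosen with earlier results of these data known. Values were printed for collagen genes with at least 10 FPKM or past the limit on any day, and for pathway genes past the limit on all 3 days or most abundant in their list. Where a list gene was not found, its older symbol was tried. The rule was tested on simulated copies of the day 0 library, with large changes put into genes of at least 10 FPKM. This checks the code only. It does not check calls near the limit or near 1 FPKM, or the variation between real libraries. The 9 comparison tables of the authors, with fold changes and p-values, and the circRNA counts, whose IDs name no gene, were not used. Promoter sequences are from RefSeq (GRCh38.p14). Python 3.11.15, numpy 2.4.6, pandas 2.3.3 and matplotlib 3.10.9 were used.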

Additional observations from a re-analysis of the deposited data

Results flagged for a closer look

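The lncRNA table lists 2 transcripts antisense to COL4A2, which enter no comparison above and exceeded their day 0 level in 1 later library each. COL4A2-AS1 had 0.896, 0, 1.54 and 0.271 FPKM on days 0, 3, 6 and 9. COL4A2-AS2 had 0.429, 0.619, 0.407 and 0.384 FPKM in the same libraries. Both were far below COL4A2 itself, and whether counting used the strand is not given in the sources used here. With 1 library per day these differences have no replicate check.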

How the results depend on the processing

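No paired analysis was possible because the 4 time points are single libraries. The settings for single genes and the comparison of day 9 with day 3 were chosen after the data were seen. With a 4-fold limit, stricter by construction, 6 collagen genes were higher and 0 lower on day 3, 4 were higher on day 6, 3 on day 9, and 3 were higher and 0 lower on all 3 days. Counted per transcript, where 65 reached 1 FPKM, the higher ones numbered 31, 31 and 26 for days 3, 6 and 9 and the lower ones 2, 2 and 3, while 20 were higher and 2 lower throughout. Between days 3 and 6, 1 transcript was higher and 2 were lower, and between days 6 and 9, 1 was higher. With 0.1 added, 2 genes were lower on day 6 than on day 3. The other 96 values recomputed for counts, class medians and summed ratios stayed within 1.5-fold of those reported. Among them the FACIT median for day 6 was 1.01 with 0.1 added against 0.57, and the network median for day 3 was 1.575 with a minimum of 5 FPKM against 1.004. The higher genes on days 3, 6 and 9 numbered 17, 17 and 13 with 0.1 added. They numbered 12, 12 and 9 of 20 with a minimum of 5 FPKM, and 16, 15 and 11 of 28 with rescaling. The drop from day 3 to day 6 was thus absent under the first 2 of these settings. With no minimum, the 14, 12 and 11 higher genes stand among all 44. The shares over all genes or all transcripts were not computed under any of these changed settings. The counts by 4-fold limit, per transcript, with 0.1 added, with 5 FPKM or no minimum, and with rescaling thus have no background beside them. For rescaling, each library was divided by the median ratio of its genes to their geometric mean over the libraries. The 11584 genes above 1 FPKM in every library gave this factor. Rescaling moved the median of all genes by 0.12, 0.12 and 0.11 on the log2 scale. It raised the ratios of summed collagen FPKM to 2.66, 2.39 and 1.76. Of 69 ratios of 23 named genes, 5 moved past the 2-fold limit with 0.1 added and 5 with rescaling, among them COL5A2 on day 3 (1.04), COL6A1 on day 6 (1.02) and COL4A4 on day 6 (1.07) with rescaling, and COL8A2 on days 3 and 6 (1.18 and 1.73) with 0.1 added. No ratio past the limit changed its sign.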
